A study of Mus musculus with 24 samples.

Results

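The complement genes described here are 10 members of the complement system, chosen by symbol from the 55421 genes of the count table: the C1q chains C1qa, C1qb and C1qc, the component genes C3 and C4b, the alternative pathway genes Cfb and Cfp, the receptor genes C3ar1 and C5ar1, and the inhibitor gene Serping1. All 10 were found by their Ensembl identifiers, and 9 of them passed the filter on low counts that kept 16593 genes, C4b being the exception. The filter asked for about 0.174 CPM (defined below) in at least 6 libraries, and Serping1 reached that level in 8 LPS-stimulated and 1 unstimulated library. It passed only through the LPS groups, so it is described without a test. It is left out of the counts of members unless stated. All were measured by RNA sequencing of bone marrow-derived macrophages (BMDMs), cells grown from mouse bone marrow with 10 ng/ml GM-CSF and 2 ng/ml TGF-β to resemble alveolar macrophages. The 4 groups of 6 libraries were WT BMDMs (C57/B6/J) and AhR-KO BMDMs (B6.129-Ahr tm1Bra/J, a germline deletion of the aryl hydrocarbon receptor), each unstimulated or given LPS at 97 EU/ml on day 6 for 24 h. The study used mice of 7 to 14 weeks, with 6 animals per group from 1 experiment. Per the treatment protocol, the Ca2+ ionophore A23187 at 5 µM was added for the last 10 min, and the labels name no group without it. The cells are cultures of bone marrow and not macrophages taken from lung, and AhR is deleted in all cells of the animal, so that effects in macrophages and in their precursors cannot be told apart.

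Complement is a set of proteins that tag microbes and dying cells, and macrophages make several of them locally. C1q, built from chains A, B and C, recognises targets in the classical pathway, C4 and C2 form its convertase, and C3 is the component on which all pathways converge. Factor B (Cfb) is the protease of the alternative pathway convertase, properdin (Cfp) stabilises that convertase, the receptors C3aR and C5aR1 sense the released fragments C3a and C5a, and C1 inhibitor (Serping1) blocks the proteases C1r and C1s.

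Library depth was between 45106052 and 76992663 counts. Expression is given as CPM, the counts of a gene per 1000000 counts of the library, scaled by edgeR's TMM factors, with mean ± SD over 6 libraries. The libraries are numbered 17 to 40, and the numbers fall into 3 sets of 8 (17 to 24, 25 to 32 and 33 to 40), called library sets here, with 2 libraries of each group in a set. The labels do not say what the numbers mean. The libraries also differed in the slope of log2 CPM on log2 gene length, from -0.43 to 0.25, with medians of 0.00906, 0.190 and -0.207 in the 3 sets. Ahr was counted in all groups, at 28.3 ± 12.2 CPM (SD, n = 6) in unstimulated WT, 7.42 ± 2.39 CPM in unstimulated AhR-KO, 16.8 ± 7.63 CPM in WT after LPS and 43.1 ± 16.2 CPM in AhR-KO after LPS. Counts over all exons cannot show which part of the transcript the allele lacks. The macrophage markers summed to between 13930 and 33710 CPM per library, led by Lyz2, and 1 of the 8, Fcgr1, was called between the genotypes, being higher in AhR-KO after LPS (1139 against 482 CPM, edgeR's quasi-likelihood test, adjusted p = 0.00308; interaction, adjusted p = 0.0424). The alveolar macrophage list (8 genes) summed to 5373 to 8340 CPM in the unstimulated libraries, and after LPS to 2891 to 7022 CPM in WT and 5240 to 8230 CPM in AhR-KO. Siglecf (184 against 61.97 CPM, adjusted p = 0.00282) and Ear1 were higher in AhR-KO without stimulation, Car4 (3674 against 1832 CPM, adjusted p = 9.15e-05) and Ear1 after LPS, and the other members were not called. Markers of other cells moved with genotype as well. Members of their lists that reached the level of the filter in fewer than 6 libraries of 1 genotype enter the sums but not the counts of calls. Of all genes, 0.916% were called higher and 3.57% lower in AhR-KO without stimulation. After LPS, 2.17% were called higher and 6.19% lower. The neutrophil list (8 genes) summed to 305 to 1436 CPM in unstimulated WT against 46.3 to 92.3 CPM in AhR-KO, and to 116 to 816 CPM against 23.7 to 81.2 CPM after LPS. The dendritic cell list (8 genes) summed to 57.7 to 193 CPM against 9.31 to 16.9 CPM, and to 581 to 2457 CPM against 101 to 894 CPM after LPS. Its sums were led by Itgae in unstimulated WT and by Ccr7 after LPS. Of its 5 members counted, Ccr7, Itgae and Dpp4 were lower in AhR-KO in both states, Zbtb46 was lower after LPS alone (3.42 against 11.7 CPM, adjusted p = 0.0071; interaction, adjusted p = 0.114), and Clec9a was higher without stimulation (6.42 against 2.53 CPM, adjusted p = 0.00461). Flt3 and Cd207, left out of the count, had means of at most 0.0397 CPM in AhR-KO and of 1.55 to 35.4 CPM in WT. The mast cell and basophil list (8 genes) summed to 11.6 to 29.2 CPM in unstimulated WT against 2.95 to 5.31 CPM in AhR-KO. After LPS it summed to 25.8 to 60.7 CPM against 5.26 to 13.4 CPM. Of its 6 counted members, 5 were called lower in AhR-KO without stimulation and 6 after LPS, beside 3.57% and 6.19% of all genes. The endothelial list (8 genes) summed to 8.01 to 33.8 CPM in unstimulated WT against 1.88 to 7.66 CPM in AhR-KO, with Pecam1 alone called (-2.18, adjusted p = 0.0123), and to 6.36 to 38.7 CPM against 3.64 to 33.99 CPM after LPS. The fibroblast list (8 genes, 2 of them counted) summed to 3.14 to 18.9 CPM in WT and 10.4 to 30 CPM in AhR-KO after LPS, where Dcn was higher in AhR-KO (11.9 against 0.822 CPM, adjusted p = 2.1e-05). Thy1, described without a test, had 0.211 CPM in AhR-KO and 10.1 CPM in WT. The B cell list stayed at or under 1.15 CPM and the T cell list at or under 5.90 CPM in every library. In bulk samples, fewer cells of a type and less RNA per cell cannot be told apart, and the part of these cells in the results below was not tested.

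All 10 genes lie on the minus strand of mm10. The C1q genes are neighbours on chromosome 4, C1qb (ENSMUSG00000036905) at chr4:136880129-136886187, C1qc (ENSMUSG00000036896) at chr4:136889804-136893065 and C1qa (ENSMUSG00000036887) at chr4:136895917-136898803. Chromosome 17 holds C4b (ENSMUSG00000073418) at chr17:34728380-34743882, Cfb (ENSMUSG00000090231) at chr17:34856374-34862518 and C3 (ENSMUSG00000024164) at chr17:57203970-57228136. Cfp (ENSMUSG00000001128) lies at chrX:20925454-20931555, C3ar1 (ENSMUSG00000040552) at chr6:122847138-122856161, C5ar1 (ENSMUSG00000049130) at chr7:16246743-16259540 and Serping1 (ENSMUSG00000023224) at chr2:84765387-84775444. Of the 2825 exon bases of Cfb, 2246 are shared on the same strand with the gene Gm20547, which had 0 counts, and fragments overlapping more than 1 gene were not counted. The level of Cfb is therefore understated, by the same rule in every library.

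RefSeq promoters (GRCm38.p6) were matched for 6 of the 10 members. The sequences before the RefSeq start of the following 3 genes are shown because Cfp and C5ar1 moved in opposite directions between the genotypes and C1qb stands for the C1q genes. Capitals mark matches to the motifs searched, 250 bases for Cfp (chrX:20931556-20931805) and the nearest 150 bases for C5ar1 (chr7:16259339-16259488) and C1qb (chr4:136886201-136886350), all on the minus strand and written 5′ to 3′. The RefSeq start of C5ar1 lies within the Ensembl gene as counted, so the C5ar1 stretch is inside the coordinates given above and upstream of the RefSeq start only.
Cfp: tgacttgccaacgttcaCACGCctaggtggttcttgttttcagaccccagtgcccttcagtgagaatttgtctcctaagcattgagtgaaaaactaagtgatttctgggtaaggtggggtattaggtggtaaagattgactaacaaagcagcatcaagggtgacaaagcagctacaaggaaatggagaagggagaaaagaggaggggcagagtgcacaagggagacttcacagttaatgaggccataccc
C5ar1: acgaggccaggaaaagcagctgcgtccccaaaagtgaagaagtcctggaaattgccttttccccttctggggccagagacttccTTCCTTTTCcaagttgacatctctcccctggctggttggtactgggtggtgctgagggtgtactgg
C1qb: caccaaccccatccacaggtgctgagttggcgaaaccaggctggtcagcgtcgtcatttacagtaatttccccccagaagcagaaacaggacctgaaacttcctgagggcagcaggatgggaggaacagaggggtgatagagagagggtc

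The motifs were the AhR core motif GCGTG, the interferon-stimulated response element GAAANNGAA, the gamma-activated site TTCNNNGAA and the kappaB site GGANTTTCC, on both strands of the 250 bases before each start. The promoter of Cfp held the AhR core motif once, as CACGC from 233 to 229 bases before the start, a motif found in 28.2% of all 32851 promoters. That of C5ar1 held the interferon-stimulated response element once, as TTCCTTTTC from 66 to 58 bases before the RefSeq start and thus inside the Ensembl gene, a motif found in 7.13% of promoters. None of the 4 motifs was matched in these windows of C1qb, C1qc, C3 or C3ar1. The gamma-activated site and the kappaB site, in 7.02% and 1.07% of all promoters, were matched in none of the 6 windows. A match is a description of letters and not a site of binding.

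Per kilobase of all exon bases, Cfp was the most abundant member in all 4 groups. The place of Cfb depends on the bases it shares with Gm20547: over the 579 bases that no other gene shares, a length chosen after seeing the data, it had 56.97, 139, 275 and 371 CPM per kb in unstimulated WT, unstimulated AhR-KO, WT after LPS and AhR-KO after LPS. By that length its mean was first in WT after LPS (115.8 to 489.5, against 169 to 272 for Cfp, so the ranges overlapped) and the next after Cfp in the other groups. The orders below use all exon bases. In unstimulated WT it had 289 ± 60.2 CPM per kb (SD, n = 6), followed by C1qb (38.97), C1qa (28.1), C3ar1 (15.1), C5ar1 (13.2), C3 (13.1), C1qc (12.6) and Cfb (11.7). Serping1 (0.0161) and C4b (0.00078) were near the limit of detection. From C1qb to Cfb, the ranges of neighbours in this order overlapped, while Cfp lay above all libraries of C1qb and Cfb above all libraries of Serping1. In AhR-KO after LPS, Cfp had 456 ± 87.3 CPM per kb and Cfb was next with 76.0 ± 41.3, while C1qa was the eighth with 1.13 ± 1.07. In unstimulated AhR-KO the order was Cfp (280), Cfb (28.6), C1qb (20.3), C3 (16.4), C3ar1 (12.6), C1qa (7.40), C1qc (5.68) and C5ar1 (4.96), and in WT after LPS it was Cfp (224), Cfb (56.4), C3 (16.2), C3ar1 (14.4), C1qb (11.99), C5ar1 (11.9), C1qa (6.07) and C1qc (2.82). In AhR-KO after LPS, C3ar1 (23.9), C3 (11.7), C1qb (6.42), C5ar1 (1.90) and C1qc (1.26) lay between Cfb and C1qa. Beside Cfp, neighbours that did not overlap were C5ar1 and the low genes C4b and Serping1 in unstimulated AhR-KO, and C1qb with C5ar1 and C1qa with Serping1 in AhR-KO after LPS. The 10 genes took 0.0960% ± 0.0220 (SD, n = 6) of counts in unstimulated WT, 0.0860% ± 0.0154 in unstimulated AhR-KO, 0.0711% ± 0.0300 in WT after LPS and 0.0953% ± 0.0316 in AhR-KO after LPS.

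**Figure D1:**
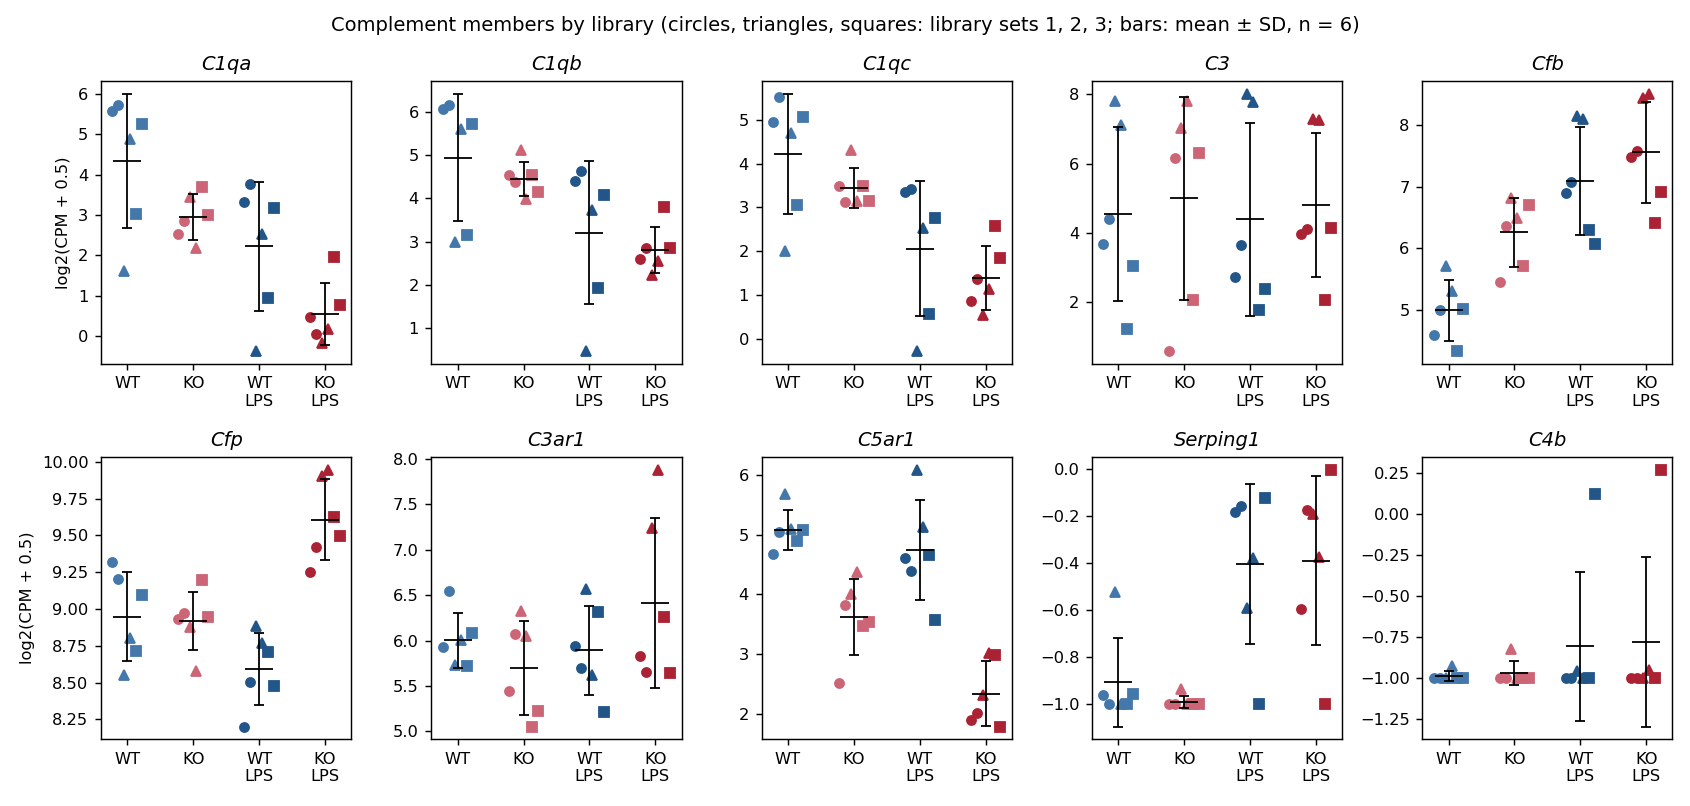
Expression of the 10 complement genes in each library as log2(CPM + 0.5), by group on the horizontal axis. Each point is a library, circles, triangles and squares stand for library sets 1, 2 and 3, and black bars give the mean and SD of 6 libraries. C5ar1 was lower in all AhR-KO libraries than in all WT libraries of the same state, Cfp was higher in all AhR-KO libraries after LPS, and C3 was high in the 8 libraries of set 2.

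The 5 comparisons were made with edgeR's quasi-likelihood test, with Benjamini-Hochberg adjustment over all 16593 genes. A differentially expressed gene (DEG) was one whose adjusted p did not exceed 0.05 and whose log2 fold change was 1 or more in either direction. For the interaction of genotype and LPS the adjusted p alone decided. Between the genotypes without stimulation, 1 of the 8 members tested beside Serping1 was a DEG, C5ar1, which was lower in AhR-KO, where 4.48% of all genes were DEGs (0.916% higher, 3.57% lower). After LPS, 3 of 8 were DEGs, C1qa and C5ar1 lower and Cfp higher, beside 8.36% of all genes (2.17% higher, 6.19% lower). LPS changed 4 of 8 in WT, with C1qa, C1qb and C1qc lower and Cfb higher, beside 24.9% of all genes (13.2% higher, 11.8% lower). In AhR-KO, LPS changed 5 of 8, the same 4 genes in the same directions and C5ar1, which fell, beside 30.8% of all genes (15.1% higher, 15.7% lower). The interaction was called for 1 member, Cfp, beside 4.3% of all genes (1.95% higher, 2.34% lower). The median log2 fold change of the 8 members was -0.60, -0.69, -0.26 and -0.94 in the 4 comparisons, beside -0.01, -0.05, 0.03 and -0.03 over all genes. The comparisons share libraries, so their values are given side by side and not as independent results. These p-values rest on the spread between animals of 1 experiment.

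**Figure D2:**
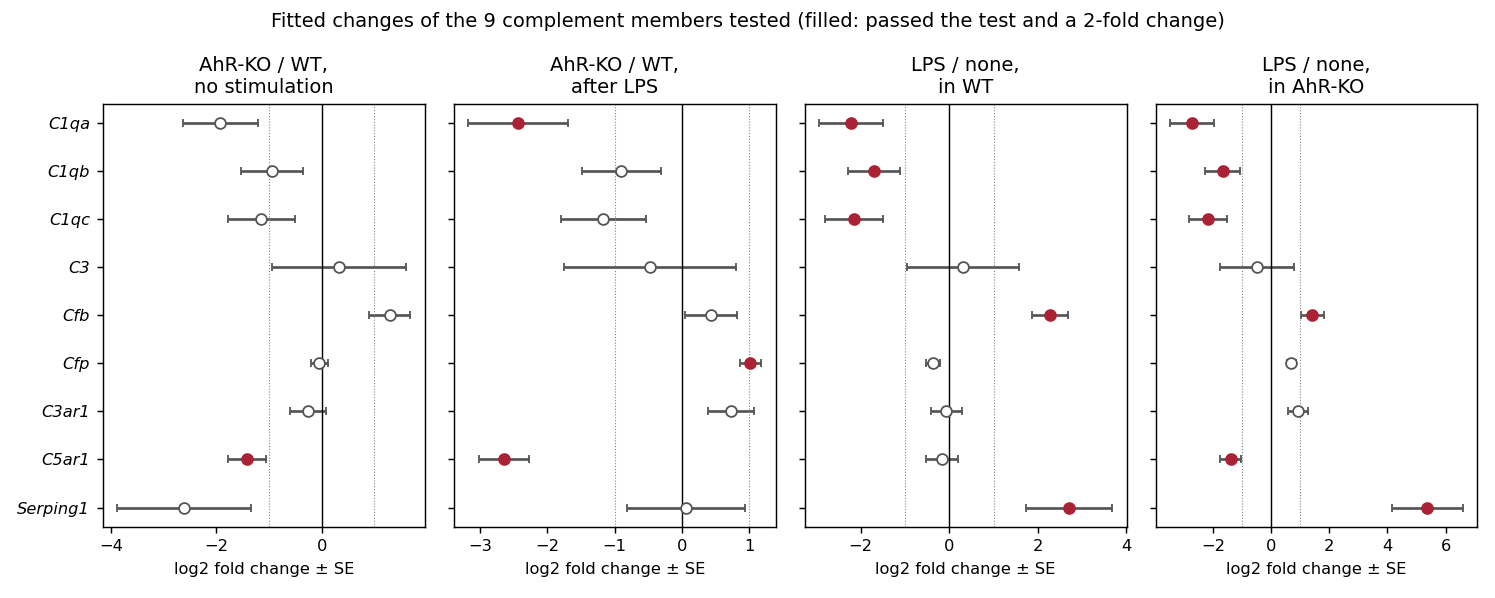
Fitted log2 fold change (horizontal axis, ± standard error) of the 9 members tested, in the 2 genotype comparisons and the 2 LPS comparisons. Filled points passed the adjusted p and the minimum fold change, dotted lines mark a log2 fold change of -1 and 1. The C1q genes lay left of 0 in all 4 panels, Cfb right of 0 in all 4, and C5ar1 left of 0 with filled points in 3. The points of Serping1, filled or open, are no test, since it passed the filter on low counts through the LPS groups alone.

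The 3 C1q genes fell with LPS in both genotypes. C1qa, the A chain, had 2.54, 33.2 and 51.9 CPM (lowest, median and highest of 6) in unstimulated WT and 0.278, 6.88 and 13.02 CPM in WT after LPS. In AhR-KO it had 4.003, 7.08 and 12.5 CPM without stimulation and 0.393, 0.760 and 3.38 CPM after LPS. The WT libraries overlapped between the states, since libraries 25 and 33 were low without stimulation, and all 6 AhR-KO libraries after LPS were below all 6 without it. The log2 fold change by LPS was -2.21 in WT (standard error 0.73, adjusted p = 0.0183) and -2.72 in AhR-KO (standard error 0.75, adjusted p = 0.00451). The call in WT was lost in the fit of the 12 libraries alone (-2.26, adjusted p = 0.0535).

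C1qb, the B chain, had 7.43, 50.2 and 71.6 CPM in unstimulated WT and 0.882, 14.7 and 24.2 CPM after LPS, and in AhR-KO 15.2, 21.5 and 34.3 CPM and 4.21, 6.09 and 13.4 CPM. Its libraries overlapped between the states in WT and were separate in AhR-KO, as for C1qa. It fell by log2 fold changes of -1.70 (standard error 0.60, adjusted p = 0.027) in WT and -1.66 (standard error 0.60, adjusted p = 0.0262) in AhR-KO. The call in WT was lost in the fit of the 12 libraries alone (-1.75, adjusted p = 0.0905) and without library 17, 18 or 37 (adjusted p = 0.0605, 0.0651 and 0.056), that in AhR-KO with limma-voom (adjusted p = 0.0556) and without library 23, 27, 31 or 32 (adjusted p = 0.0521 to 0.0569). It was also lost without set 3 (adjusted p = 0.0651) or libraries 34 and 38 (adjusted p = 0.0574) in WT, and without set 2 in AhR-KO (adjusted p = 0.0778).

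C1qc, the C chain, had 3.49, 28.1 and 45.1 CPM in unstimulated WT and 0.327, 5.77 and 10.2 CPM after LPS, and in AhR-KO 8.27, 9.53 and 19.4 CPM and 0.964, 1.89 and 5.45 CPM. Its fall was -2.15 in WT (standard error 0.65, adjusted p = 0.0109) and -2.18 in AhR-KO (standard error 0.66, adjusted p = 0.00875). Within the 3 library sets the fall by LPS on the scale of log2(CPM + 0.5) had the same sign for all C1q genes in both genotypes, from -1.43 to -2.40 in WT and from -1.03 to -2.89 in AhR-KO. With the library set as a factor, all 6 falls were called, with adjusted p of 0.00853 for C1qa, 0.0163 for C1qb and 0.00656 for C1qc in WT and 0.00161, 0.0167 and 0.00521 in AhR-KO. Without set 1, which leaves 4 libraries a group, the adjusted p of the C1q falls lay between 0.0528 and 0.145.

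Between the genotypes the C1q chains did not move alike. C1qa was 5.41-fold lower in AhR-KO than in WT after LPS (log2 fold change -2.44, standard error 0.74, adjusted p = 0.031), although the groups overlapped, the lowest WT library (29) being lower than all AhR-KO libraries. This call was lost with limma-voom (-2.04, adjusted p = 0.335), in the fit of the 12 libraries alone (-2.41, adjusted p = 0.0816), without set 1 (-1.41, adjusted p = 0.601), without libraries 34 and 38, both WT and without Y-linked counts (-2.33, adjusted p = 0.0602), and when any 1 of the libraries 21, 22, 23, 24, 31, 32, 38 and 40 was left out (adjusted p = 0.0515 to 0.0799). Without stimulation the difference of C1qa was -1.93 (standard error 0.72, adjusted p = 0.146), and DESeq2 called it (-1.91, adjusted p = 0.0486). C1qb differed by -0.94 and -0.90 (adjusted p = 0.602 and 0.423) and C1qc by -1.15 and -1.17 (adjusted p = 0.49 and 0.298) without stimulation and after LPS, so no difference was shown for them. Their values in the library sets had both signs, from -1.66 to 0.25 and from -1.80 to 0.31 for C1qb. For C1qa they were -2.96, -0.44 and -0.79 without stimulation and -3.27, -1.07 and -0.69 after LPS. The WT groups held the widest spread, with C1qa at 2.54 and 7.58 CPM in unstimulated libraries 25 and 33 and at 28.8 to 51.9 CPM in the other 4, and after LPS at 0.278 and 1.42 CPM in libraries 29 and 37 and at 5.23 to 13.02 CPM in the other 4.

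Chains counted in the same library share its depth and its cells, so their ratio was compared as well, a choice made after the values were seen. In unstimulated WT there were 0.667 ± 0.188 (SD, n = 6) counts of C1qa per count of C1qb, from 0.342 to 0.910, and in AhR-KO 0.350 ± 0.118, from 0.232 to 0.546. After LPS the ratio was 0.444 ± 0.0811 in WT, from 0.315 to 0.538, and 0.148 ± 0.0638 in AhR-KO, from 0.0818 to 0.252. After LPS all AhR-KO libraries were below all WT libraries, and without stimulation the groups overlapped through WT library 25. The mean log2 ratio was lower in AhR-KO by -0.93 without stimulation (exact permutation test, two-sided, p = 0.00866, adjusted over 6 tests 0.0173) and by -1.68 after LPS (p = 0.00216 by the same exact test, the smallest that 6 against 6 libraries allow, adjusted 0.00648). In each of the 3 library sets and in both states, both AhR-KO libraries had a lower ratio than both WT libraries. The ratio of C1qa to C1qc differed by -0.66 without stimulation (exact permutation test, two-sided, p = 0.0433, adjusted 0.0649) and by -1.39 after LPS (p = 0.00216 by the same exact test, adjusted 0.00648). For C1qc to C1qb no difference was shown, with -0.28 (exact permutation test, two-sided, p = 0.128, adjusted 0.154) and -0.29 (p = 0.158 by the same exact test, adjusted 0.158). C1qa and C1qb are of similar exon length, 1040 and 1088 bases.

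**Figure D3:**
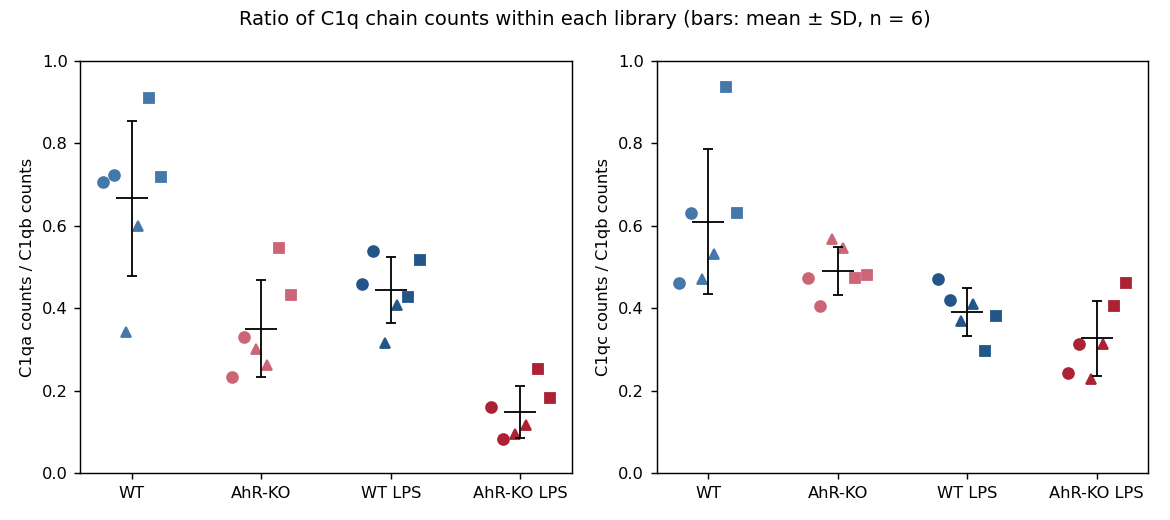
Counts of C1qa (left) and C1qc (right) per count of C1qb in each library, by group, on a linear axis from 0. Points are libraries, with circles, triangles and squares for library sets 1, 2 and 3, and bars are mean and SD of 6. The C1qa ratio lay between 0.0818 and 0.252 in AhR-KO after LPS and between 0.315 and 0.538 in WT after LPS, while the C1qc ratio overlapped between the genotypes.

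C4b, a C4 gene of the classical convertase, was at the limit of detection and was not tested. It had 2, 6, 25 and 38 counts in all over the 6 libraries of unstimulated WT, unstimulated AhR-KO, WT after LPS and AhR-KO after LPS. Counts were present in 1, 1, 2 and 2 libraries of these groups, with the highest level of 0.707 CPM in AhR-KO library 40. Its near-identical neighbour C4a had 35 counts in all 24 libraries, and reads that fit both genes were not counted.

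C3, the central component, had no DEG call. It had 1.86, 16.4 and 225 CPM in unstimulated WT, 1.02, 74.6 and 223 CPM in unstimulated AhR-KO, 2.95, 9.14 and 257 CPM in WT after LPS and 3.69, 16.95 and 155 CPM in AhR-KO after LPS. The groups overlapped over nearly their whole range, and its level followed the library set. All 8 libraries of set 2, with both genotypes and both states, had 130 to 257 CPM, and the other 16 libraries had 1.02 to 77.9 CPM. Set means took 72.6% of the variance of log2(CPM + 0.5) of C3 and group means 0.952%, whereas for the other members the sets took between 0.407% (Cfp) and 25.7% (C3ar1). The length slope of the libraries was 0.145 to 0.254 in set 2 and at most 0.0686 in the others. The 3 genes most like C3 across the 24 libraries were Hdlbp, Polr2a and Plxna1. The fitted log2 fold changes of C3 were 0.33, -0.47, 0.31 and -0.49 for the 2 genotype comparisons (unstimulated, then LPS-stimulated) and for LPS in WT and in AhR-KO, with standard errors of 1.27 to 1.28 (adjusted p = 1, 0.935, 0.881 and 0.796). With the library set as a factor, the standard errors of C3 fell to between 0.73 and 0.76, and its values were 1.58, 0.37, -0.16 and -1.36 in the same order (adjusted p = 0.269, 0.827, 0.883 and 0.128).

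**Figure D4:**
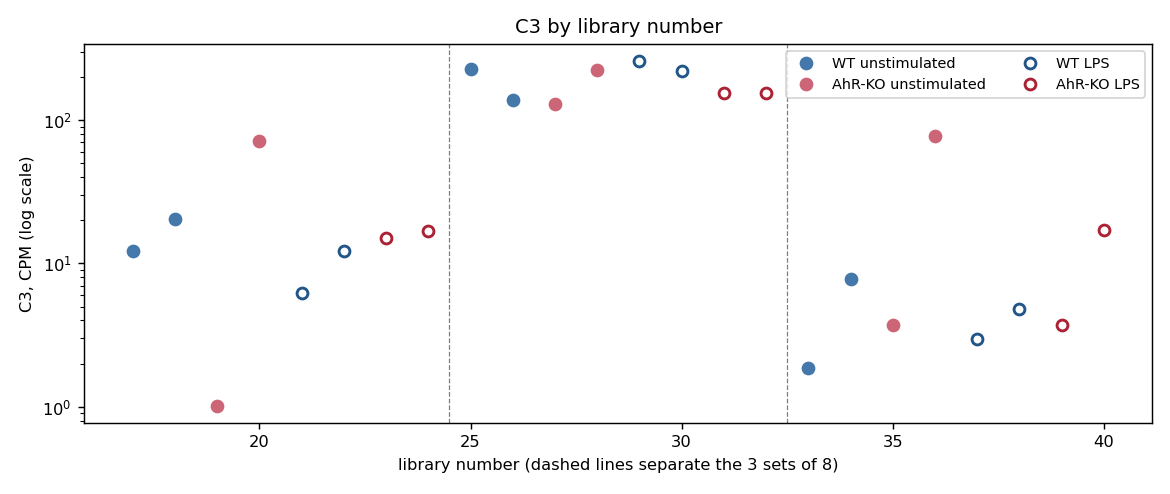
CPM of C3 on a log axis against library number, with filled points for unstimulated and open points for LPS-stimulated libraries and dashed lines between the 3 library sets. The 8 libraries numbered 25 to 32 lie between 130 and 257 CPM whatever their group, and the 16 others between 1.02 and 77.9 CPM.

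Cfb, the protease of the alternative pathway convertase, rose with LPS in both genotypes. It had 19.7, 31.7 and 52.1 CPM in unstimulated WT and 67.1, 127 and 283 CPM after LPS, where all 6 libraries were above all unstimulated ones. In AhR-KO it had 43.3, 86.2 and 113 CPM and 84.6, 185 and 365 CPM, with 5 of 6 LPS libraries above the unstimulated range. The log2 fold change by LPS was 2.27 in WT (standard error 0.40, adjusted p = 8.0e-05) and 1.41 in AhR-KO (standard error 0.39, adjusted p = 0.0049). The call in AhR-KO was lost when libraries were scaled by their totals (0.91, adjusted p = 0.0809) and without set 1 (1.31, adjusted p = 0.0929).

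Without stimulation, Cfb had a mean of 80.7 CPM in AhR-KO and 32.98 CPM in WT, with 4 of 6 AhR-KO libraries above all WT libraries. The log2 fold change of 1.29 (standard error 0.39) missed the threshold narrowly (adjusted p = 0.052). It was called under 7 of 15 other settings, among them DESeq2 (1.30, adjusted p = 0.0124), the library set as a factor (1.35, adjusted p = 5.7e-04) and a model that held the length slope (1.22, adjusted p = 3.67e-06), and with 10 of the 24 libraries left out in turn. The 3 library sets gave 1.12, 1.15 and 1.53. After LPS, Cfb differed between the genotypes by 0.43 (standard error 0.39, adjusted p = 0.632), and the interaction was -0.86 (adjusted p = 0.614), called in the model that held the length slope and in no other (-0.71, adjusted p = 0.0254).

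Cfp, properdin, was the member whose response to LPS differed between the genotypes. It had 375, 496 and 639 CPM in unstimulated WT and 382, 490 and 586 CPM in unstimulated AhR-KO, which overlapped fully. After LPS it had 294, 391 and 472 CPM in WT and 609, 755 and 987 CPM in AhR-KO. All 6 AhR-KO libraries after LPS were above all 6 WT libraries after LPS and above all 6 unstimulated AhR-KO libraries. The genotype difference was -0.05 without stimulation (standard error 0.16, adjusted p = 1) and 1.02 after LPS (standard error 0.16, adjusted p = 7.1e-05), and the interaction was 1.07 (standard error 0.22, adjusted p = 0.0051).

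The difference of Cfp after LPS was 0.98, 1.10 and 0.97 in the 3 library sets, and it lay close to the minimum fold change. It fell under it, at an adjusted p of at most 0.00102, without library 21, 22, 31, 32 or 38 (0.94 to 0.99), without set 2 (0.97), without libraries 34 and 38 (0.997) and with total library size (0.80). LPS alone moved Cfp by -0.37 in WT (adjusted p = 0.0701) and by 0.70 in AhR-KO (adjusted p = 7.45e-04, under the minimum fold change). With total library size the rise in AhR-KO was 0.22 (adjusted p = 0.254) and the change in WT -0.72 (adjusted p = 6.64e-04), as that scaling moved the median of all genes to -0.52 and -0.31. Over the settings tried, the interaction of Cfp stayed between 0.94 and 1.26, with its highest adjusted p of 0.125 without set 1, where 101 genes in all were called. Cfp is X-linked, and libraries 34 and 38 are the 2 without Y-linked counts. Neutrophils are known to make properdin too. The neutrophil list was lower in AhR-KO after LPS, and the part of these cells in the level of Cfp was not tested.

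C5ar1, the receptor for C5a, was lower in AhR-KO in both states. It had 25.1, 32.8 and 50.7 CPM in unstimulated WT and 5.21, 12.4 and 20.3 CPM in unstimulated AhR-KO. After LPS it had 11.3, 24.3 and 67.6 CPM in WT and 2.94, 4.01 and 7.61 CPM in AhR-KO. The genotypes did not overlap in either state. The log2 fold change was -1.42 without stimulation (standard error 0.36, adjusted p = 0.0159), a 2.67-fold lower level, and -2.64 after LPS (standard error 0.38, adjusted p = 2.8e-05), a level lower by 6.25-fold.

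The 3 library sets gave -1.69, -1.20 and -1.48 without stimulation and -2.55, -2.94 and -1.73 after LPS for C5ar1. The call after LPS was made under all 15 settings and with each library left out (-2.91 to -2.24), and that without stimulation was lost without set 1 (-1.33, adjusted p = 0.254) and without set 3 (-1.37, adjusted p = 0.0985), which leave 4 libraries a group. LPS lowered C5ar1 in AhR-KO by -1.39 (standard error 0.36, adjusted p = 0.00303), with 4 of 6 libraries below the unstimulated range, and moved it by -0.16 in WT (standard error 0.36, adjusted p = 0.77). The test of this difference, the interaction, was -1.23 (standard error 0.51, adjusted p = 0.238), so that a different response to LPS was not shown. C5ar1 is abundant in neutrophils as well. Of the 5 neutrophil markers counted, 5 were called lower in AhR-KO without stimulation and 3 after LPS, beside 3.57% and 6.19% of all genes. Elane and Retnlg passed the filter through WT and were not counted. Their part in the level of C5ar1 was not tested.

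C3ar1, the receptor for C3a, was no DEG in any comparison. It had 52.3, 62.1 and 92.7 CPM in unstimulated WT, 32.7, 54.4 and 79.8 CPM in unstimulated AhR-KO, 36.7, 56.0 and 94.5 CPM in WT after LPS and 49.4, 66.2 and 235 CPM in AhR-KO after LPS. The groups overlapped, with AhR-KO libraries 31 and 32 of set 2 alone above 100 CPM after LPS. The log2 fold change by LPS in AhR-KO was 0.92 (standard error 0.35, adjusted p = 0.0346), under the minimum fold change, and passed it without library 23, 24, 27 or 40 (1.05 to 1.07), with a range of 0.50 to 1.07 and an adjusted p of up to 0.202 over each library left out. In the 3 library sets it was -0.02, 1.37 and 0.81. The genotype difference was -0.26 without stimulation (adjusted p = 1) and 0.73 after LPS (adjusted p = 0.206), and the interaction was 0.99 (adjusted p = 0.393).

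Serping1, C1 inhibitor, was close to the limit of detection and had most of its counts after LPS. Over 6 libraries it had 18 counts in unstimulated WT, with 0.195 CPM in library 25 and at most 0.0158 CPM in the other 5, 2 counts in unstimulated AhR-KO, 90 counts in WT after LPS and 87 counts in AhR-KO after LPS. After LPS, 5 of 6 libraries in each genotype had counts, with medians of 0.325 and 0.322 CPM. The ratio of summed levels, LPS over none, was 6.24 in WT (95% exact interval 3.73 to 11.0) and 57.4 in AhR-KO (15.4 to 481), and between the genotypes after LPS it was 1.07 (0.787 to 1.45). Of the 18 counts in unstimulated WT, 16 came from library 25, and without it the ratio in WT was 44.9 (12.1 to 377), so that the gap between the ratios of the genotypes rests on this library. These intervals cover counting error only. No test between the genotypes is given, since Serping1 passed the filter on low counts through the LPS groups alone.

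Of 48 other genes of the complement system, 22 were tested. Of the 22, C1s2, Cd59b, Fcna and Susd4 reached the level of the filter in fewer than 6 libraries of 1 state and of 1 genotype, so they had to be high in other libraries to pass. They are described without a test and left out of the following counts. Between the genotypes 2 of 18 were DEGs without stimulation, both lower, beside 4.48% of all genes, and 4 of 18 after LPS, all lower, beside 8.36%. LPS changed 8 of 18 in WT (4 higher, 4 lower), beside 24.9% of all genes, and 10 of 18 in AhR-KO (5 higher, 5 lower), beside 30.8%. Without stimulation, DESeq2 also called Itgax, higher in AhR-KO (1323 against 554.6 CPM) and not called in edgeR (1.25, adjusted p = 0.061). Itgb2 was higher in AhR-KO as well (2279 against 1350 CPM), under the minimum fold change in edgeR (0.755, adjusted p = 0.0471). After LPS, limma-voom did not call Cd93 between the genotypes and called C2, which was higher in AhR-KO in edgeR without a call (adjusted p = 0.166). None had a called interaction in edgeR or limma-voom and 1, Cd93, had one in DESeq2, while 3 of 18, Cd59a, C5ar2 and Cd93, had an unadjusted p under 0.05 in edgeR. The medians over the 18 genes were -0.02, -0.34, 0.46 and -0.05 in the 4 comparisons, beside the medians of all genes given above.

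Among the genes that start the classical and lectin pathways, the C1 protease genes C1s1, C1ra and C1rb rose with LPS in both genotypes. C1s1, encoding C1s, rose from 4.13 ± 1.96 to 48.5 ± 18.1 CPM in WT (log2 fold change 3.55, adjusted p = 8.69e-08) and from 4.30 ± 1.17 to 30.7 ± 19.8 CPM in AhR-KO (2.84, adjusted p = 1.0e-06). C1ra, encoding C1r, rose by 1.51 in WT and 1.68 in AhR-KO (adjusted p = 0.00132 and 3.82e-04), and its copy C1rb by 1.58 and 1.93. The low-abundance copy C1s2 had 0.0705 and 0.174 CPM in unstimulated WT and AhR-KO and 0.555 and 0.292 CPM after LPS. Copies of C1r and C1s share sequence, so the split of counts between them is uncertain. C2, the classical convertase protease, rose by 3.10 in WT and 3.27 in AhR-KO and reached 1.47 and 2.94 CPM, with 1656 of its 3872 exon bases shared with Gm20547. In the same libraries the C1q chains that these proteases bind were lower, and Serping1, the gene of their inhibitor, had most of its counts.

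Of the ficolin genes, lectins that start the lectin pathway, Fcnb was lower in AhR-KO. Fcnb had 12.3 ± 11.2 CPM in unstimulated WT and 0.968 ± 0.328 CPM in AhR-KO (-3.66, adjusted p = 5.76e-04), and 9.29 ± 9.15 and 0.664 ± 0.376 CPM after LPS (-3.80, adjusted p = 2.54e-04), with no overlap in either state. Fcnb is known from neutrophil precursors, and the neutrophil list was lower in AhR-KO as given above. The part of these cells in the level of Fcnb was not tested. Fcna had 0.865 CPM in unstimulated AhR-KO and 0.176 CPM in WT, with no overlap, and 0.204 and 0.0550 CPM after LPS.

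Among membrane regulators, Cd55, which speeds the decay of convertases, was lower in AhR-KO without stimulation (0.256 against 1.61 CPM, -2.64, adjusted p = 7.77e-04) and after LPS (0.519 against 2.07 CPM, -2.001, adjusted p = 0.00468). Susd4 had 5.51 CPM in unstimulated WT and 1.16 CPM in AhR-KO, with no overlap, and 0.309 and 0.0430 CPM after LPS. Cd59a, an inhibitor of the membrane attack complex, fell with LPS in AhR-KO (-1.39, adjusted p = 0.00106). Cr1l (Crry), the most abundant of these regulators with group means of 119 to 140 CPM, was no DEG in any comparison.

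Among the other receptors and binding proteins, C5ar2, the second receptor for C5a, fell with LPS from 17.4 ± 5.18 to 1.79 ± 1.05 CPM in WT (-3.28, adjusted p = 8.46e-07) and from 12.3 ± 3.36 to 0.455 ± 0.265 CPM in AhR-KO (-4.74, adjusted p = 6.4e-09). After LPS it was lower in AhR-KO (-1.96, adjusted p = 0.00153), as C5ar1 was. Cd93 was lower in AhR-KO after LPS (3.22 against 20.9 CPM, -2.70, adjusted p = 0.00204) and fell with LPS in both genotypes (-2.503 and -5.01). Itgam, a subunit of complement receptor 3, rose with LPS in AhR-KO (2.03, adjusted p = 0.00178) and had 1.18 in WT (adjusted p = 0.0606, called in DESeq2), with no called interaction (0.85, adjusted p = 0.776). It has 3450 of 5024 exon bases shared with Gm49368. C1qbp fell with LPS by -1.23 and -1.32. Of the soluble regulators Clu alone was tested, with no call. Of the terminal pathway, C8g alone was tested, and it fell with LPS (-1.60 and -2.28). Cfd, C6, C4bp, Mbl1, Mbl2, Colec10 and Cr2 had 0 counts in all 24 libraries.

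**Figure D5:**
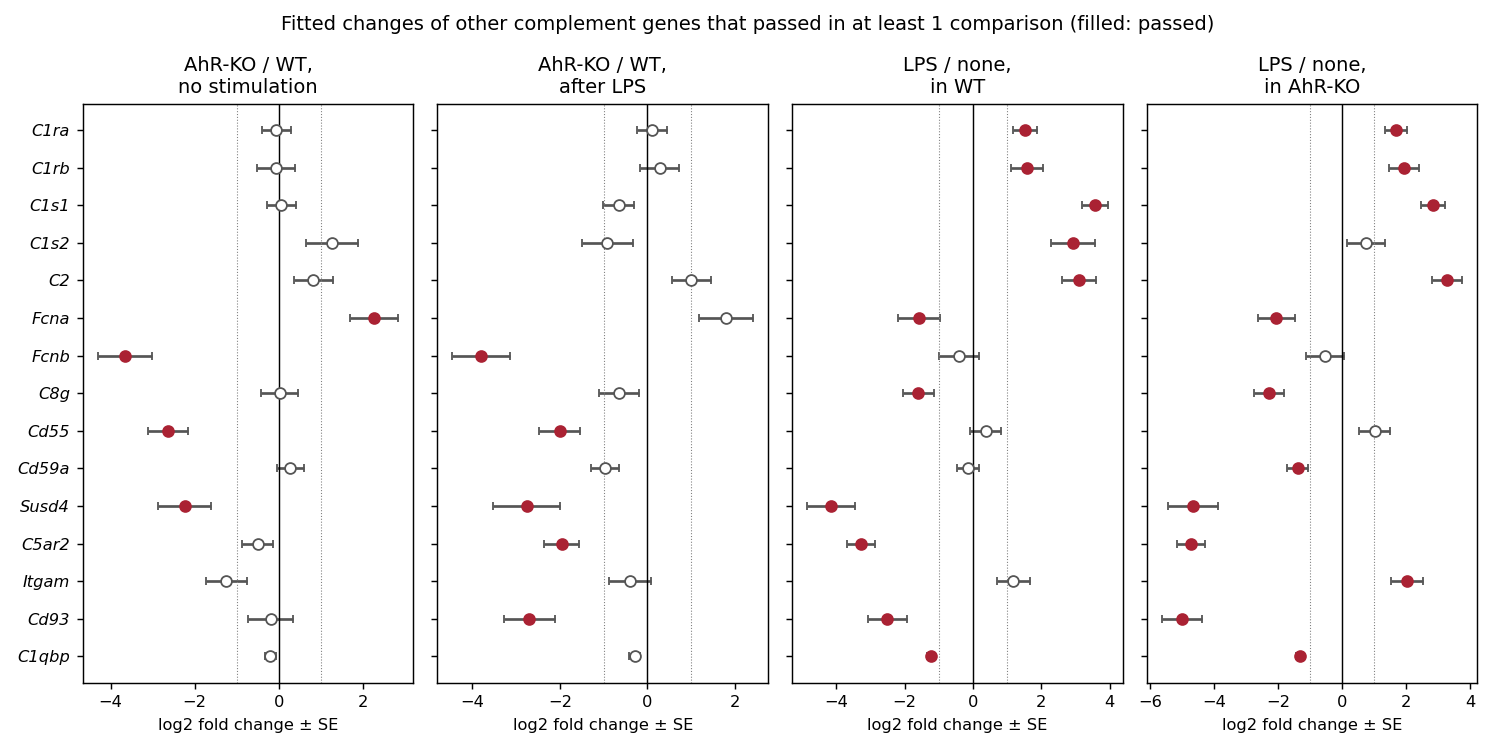
Fitted log2 fold change (horizontal axis, ± standard error) of the other complement genes that passed both thresholds in at least 1 comparison. Filled points passed the adjusted p and the minimum fold change. The C1 protease genes lie right of 0 in the LPS panels, and Fcnb and Cd55 lie left of 0 in both genotype panels with filled points. The points of C1s2, Fcna and Susd4 are no test, for the filter as described above.

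Among all pairs of members, C1qb and C1qc were the most alike of those with over 1 CPM, with a root mean square difference of 0.35 on the centred log2(CPM + 0.5) scale over 24 libraries, against 0.54 for C1qa and C1qc and 0.70 for C1qa and C1qb. Among 12710 other genes with a mean of at least 1 CPM, those most like C1qa were Ank, Prkag2 and H2-DMb2 (0.88 to 1.01), and those most like C1qb were Wtip, 4930512J16Rik and Cyp27a1 (0.89 to 0.93). C1qc was nearest to Slc9a3r2, Cyp27a1 and Stk32c (0.86 to 0.92). With a pseudocount of 0.1 in place of 0.5 all 3 genes nearest to C1qc were others (Fam117a, 4930512J16Rik and Wtip), as was the third of C1qa (Nanos1) and of C1qb (B4galt4). None of these was as near to a C1q gene as C1qb and C1qc were to each other. The nearest to Cfb were Ctsz, Tmem63b and Il2rg (0.35 to 0.40), to Cfp Unc119b, Pgam1 and Pgam1-ps2 (0.25 to 0.28), to C5ar1 Mapk13, Oplah and Spint1 (0.49 to 0.57), and to C3ar1 Pgm1, Gm4735 and Eno1 (0.36 to 0.37). Pgam1-ps2 is a pseudogene of Pgam1, so the split of their counts is uncertain. For Serping1 (Actr8, Shkbp1, Gpatch2l) and C4b (Gm37401, 4930430F08Rik, Gm15519) the likeness rests on levels near 0 and is of little meaning.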

How the data were processed

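RNA sequencing libraries of 24 BMDM samples (4 groups of 6) were analysed. The authors aligned read pairs to mm10 with GSNAP, and deposited the counts of uniquely aligned fragments per gene of Ensembl release 98 from featureCounts 2.0.1, reverse-stranded, not normalized. Demultiplexing with bcl2fastq 2.20.0 is named in the submitters' processing notes. The 92 spike-in rows held 1 count and were left out. Symbols from the reference table matched 55154 of 55421 identifiers.

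The counts of the 24 libraries were fitted together (edgeR 4.0.16, R 4.3.3). Each group had its own coefficient, and the fit used filterByExpr, TMM factors (0.704 to 1.30) and the robust quasi-likelihood F-test. The biological coefficient of variation was 49.1%. All 60 pairs of libraries of a group differed by more than counting noise (chi-square per degree of freedom 17.5 to 1257). Levels, ratios with exact permutation tests, motif counts and figures were made in Python 3.11.15 with scipy 1.17.1. Likeness is the root mean square difference of log2(CPM + 0.5), each gene centred on its mean. The tests were also run on simulated counts with known changes. Those counts held no effect of library set or of gene length, so the check does not cover these.

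The members and the gene and marker lists were chosen with earlier results of these data known. Named were all members, other complement genes that were DEGs in at least 1 comparison, and the 3 genes most like each member. Genes named beyond this rule (Cr1l, C4a, Clu, Cd59b, Itgax, Itgb2, those at 0 and single marker genes) were chosen after their values were seen. Alternatives were DESeq2 1.42.0, limma-voom 3.58.1, other scalings and filters, the 12 libraries compared alone, the library set or length slope in the model, no minimum fold change and each library left out.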

Additional observations from a re-analysis of the deposited data

Results flagged for a closer look

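Cfp was singled out because its response to LPS differed between the genotypes by the interaction test, with a log2 difference of 1.07 (edgeR's quasi-likelihood test, adjusted p = 0.0051).

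In each group of 6 libraries, the gap of the highest or lowest library to the next was compared with the group's range on the log2(CPM + 0.5) scale for 40 combinations of member and group. Chance alone would mark about 5% of groups. The gap was above Dixon's critical value for 6 libraries in 7 of the 40, and in 11 of the 40 on the CPM scale. C1qc in unstimulated AhR-KO library 27 had 19.4 CPM, with 10.8 CPM in the next library. The other 6 rest on a few counts. C4b had 0.0266 CPM in unstimulated WT library 26, 0.0665 CPM in unstimulated AhR-KO library 27, 0.587 CPM in WT library 38 after LPS and 0.707 CPM in AhR-KO library 40 after LPS. Serping1 had 0.195 CPM in unstimulated WT library 25 and 0.0222 CPM in unstimulated AhR-KO library 27.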

How the results depend on the processing

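No called member changed its direction under any alternative, and of the log2 fold changes that were not called, 15 changed sign under the planned settings, 36 with each library left out and 11 under settings chosen after seeing the data. Of the log2 fold changes of single members, 405 kept their side of the threshold under the planned settings, 9 lost a call and 10 gained one, and with each library left out 1037 kept it, 29 lost a call and 14 gained one. Of those under settings chosen after seeing the data, 203 kept it, 21 lost a call and 1 gained one. All these counts include Serping1, which passed the filter on low counts through the LPS groups alone. The causes were not tested.

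The numbers in this paragraph include Serping1, which passed the filter on low counts through the LPS groups alone. The number of complement members called between the genotypes without stimulation, 1, was 3 with DESeq2, 2 with DESeq2 size factors, a mean of at least 1 CPM, the 12 libraries alone, the library set as a factor, the length slope as a covariate or without set 2, and 0 without set 1 or set 3, and ranged from 1 to 2 with a library left out. After LPS, 3 became 1 without libraries 34 and 38 (1 to 3 with a library left out). For LPS in WT, 5 became 2 with the 12 libraries alone, 1 without set 1, and 3 without set 3 or without libraries 34 and 38 (3 to 5). For LPS in AhR-KO, 6 became 2 without set 1 (5 to 7). For the interaction, 1 became 2 with the length slope and 0 without set 1 (1 to 1). Leaving out sets or libraries 34 and 38 was chosen after seeing the data and leaves fewer samples.

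Over all genes, the calls without stimulation (744) fell to 334 without set 1 (669 to 796 with a library left out), and those after LPS (1387) were 2096 with no minimum fold change and 750 without set 1 (1245 to 1486). For LPS in WT, 4137 became 6305 with no minimum fold change (3929 to 4323), and LPS in AhR-KO kept 5105 within 4991 to 5267. The interaction (713; 564 to 782) gave 1125 calls with DESeq2, 1201 with the library set, 2748 with the length slope, and 101, 437 and 373 without sets 1, 2 and 3. Total library size moved the median of all genes to -0.09, -0.26, -0.31, -0.52 and -0.18 in the 5 comparisons, and the share of higher calls from 26% to 14.9% after LPS, from 52.8% to 33.9% for LPS in WT, from 49.0% to 28.2% in AhR-KO and from 45.4% to 31.4% for the interaction.

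The log2 ratio of C1qa to C1qb ranged from -1.11 to -0.83 without stimulation and from -1.85 to -1.53 after LPS with a library left out, and was -0.71 without stimulation without set 1 (exact permutation test, p = 0.114). C1qa to C1qc without stimulation ranged from -0.81 to -0.55 (exact permutation p up to 0.0801) and was -0.44, -0.56 and -0.96 without sets 1, 2 and 3, and after LPS from -1.51 to -1.24. C1qc to C1qb ranged from -0.35 to -0.14 and, after LPS, from -0.40 to -0.20, with -0.62 without set 3 (exact permutation test, p = 0.0286). No paired analysis was made because the labels give each library number to 1 group and do not tie LPS-stimulated libraries to unstimulated ones. Whether both states share animals is therefore unknown, and the LPS and interaction tests treated their libraries as independent.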
